A study of Rattus norvegicus with 15 samples.

Results

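The 7 genes described here, Adamts1, Tgfbi, Emp1, Clic2, Mcam, Dysf and Slc44a2, had an array signal more than 2-fold higher in the newborn ductus arteriosus of the rat than in the newborn aorta. The ductus arteriosus is the fetal vessel that joins the pulmonary artery to the aorta and closes after birth. The members were picked on that ratio, so it is given below as a description, and the signal in the other states is what was followed. All probe sets assigned to 1 of these symbols alone were read, 9 of 26202 probe sets (7 of 10969 named genes). A probe set is a group of short array probes for a transcript. The rule left 94 named genes more than 2-fold higher in the newborn ductus, of which Dysf was the 1st, Tgfbi the 2nd, Adamts1 the 6th, Clic2 the 9th, Slc44a2 the 10th, Mcam the 14th and Emp1 the 32nd. At the border of the rule, Ncapd2 lay just inside at 2.00035-fold and Ticam1 just outside at 1.99669-fold.

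Total RNA of 5 states was hybridised to 3 Affymetrix arrays for the rat, named A to C, with 1 array for each state and chip type and 15 arrays in all. The fetal ductus and the fetal aorta (arch and thoracic parts) came from fetuses of gestation day 19 delivered by caesarean section from normoxic dams. The oxygen ductus came from fetuses of the same day of mothers made hyperoxic with 100% oxygen over 3 h. The newborn ductus and newborn aorta were taken 3 h after vaginal birth. Fetal vessels were dissected in cold medium gassed with 2.5% oxygen and newborn vessels in medium with 12.5%. Birth, any gestation past day 19, route of delivery and dissection gas therefore cannot be told apart. Below, a ratio at birth means newborn over fetal signal, and not an effect of birth alone. The labels used here name no rat strain and no number of animals for an array. No state had a replicate, so every ratio compares 2 arrays, the number of arrays limits the precision, and no test was made.

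Adamts1 is a secreted metalloprotease that cleaves the proteoglycans versican and aggrecan, and Tgfbi is a secreted matrix protein, induced by TGF-beta, that binds collagen and integrins. Emp1 is a small membrane protein of the PMP22 family, and Clic2 belongs to the chloride intracellular channel family and is known to bind ryanodine receptors. Mcam (CD146) is an adhesion molecule of endothelium, smooth muscle and pericytes. Dysf (dysferlin) is a calcium-sensing ferlin that helps reseal torn plasma membrane, and Slc44a2 is a choline transporter-like protein. In the ductus, the inner layer of the wall thickens with proteoglycan-rich matrix before birth and its muscle contracts after birth, and matrix proteases, adhesion molecules and contractile proteins are studied for that reason.

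At their brightest probe set 6 of the 7 genes had their highest signal in the newborn ductus, the exception being Dysf. The lowest state was the fetal aorta for 3 genes (Adamts1, Emp1 and Mcam) and the newborn aorta for the other 4. The floor, below which a signal was not read, was the pooled median signal of the chip (149.8 for A, 241.7 for B, 243 for C). All members but Dysf were above it in all 5 states. Because signals of different probe sets are not on one scale, levels are compared between states of 1 probe set only.

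**Figure D1:**
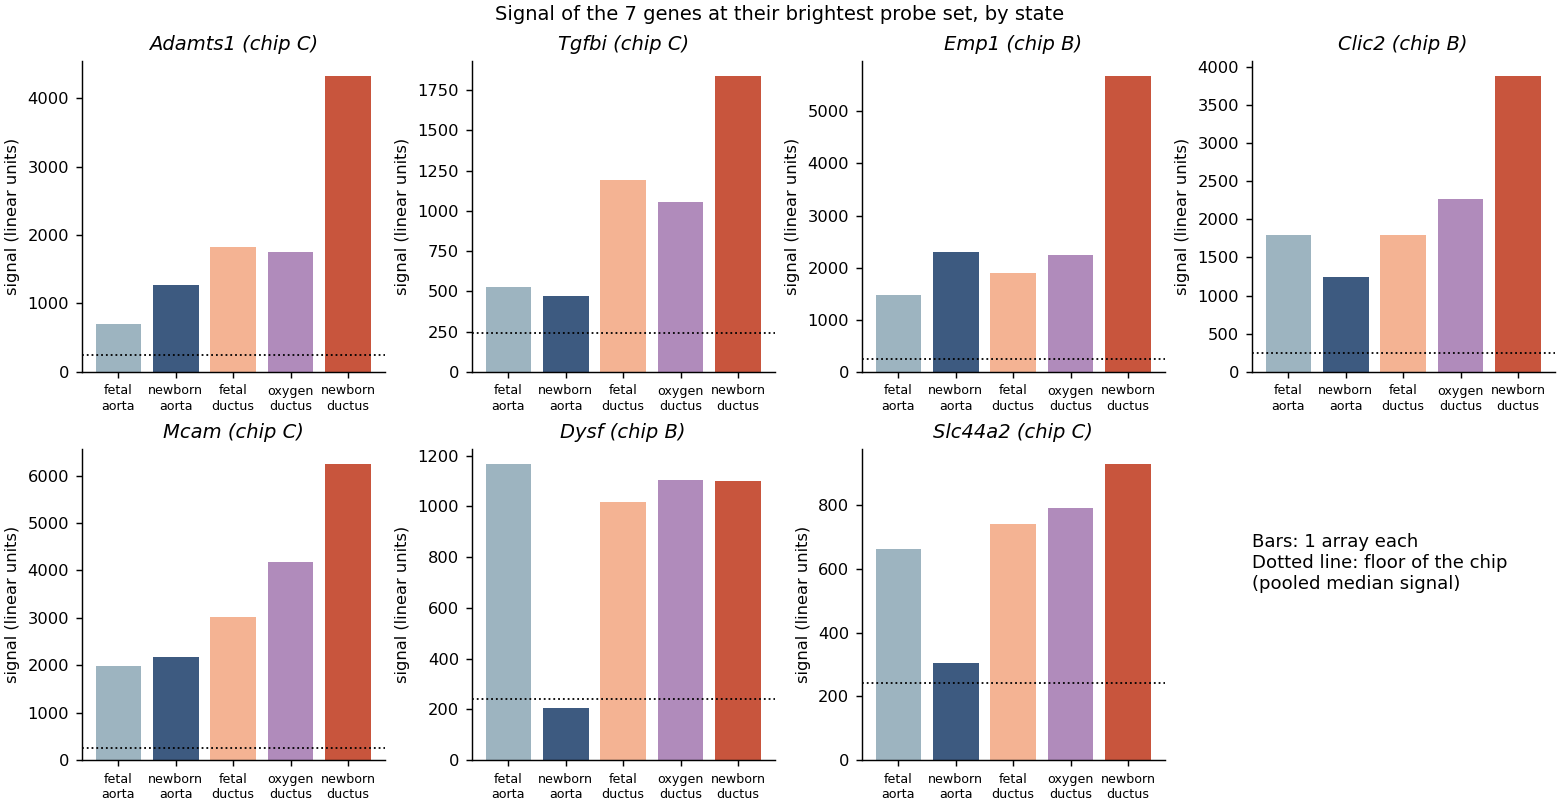
Signal (linear units) of each of the 7 genes at its brightest probe set in the 5 states, with 1 array per bar and the floor of the chip as a dotted line. The newborn ductus bar is the tallest for every gene but Dysf, whose newborn aorta signal of 205.5 is the single bar under its floor.

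Adamts1 had a signal of 694 in the fetal aorta, 1268 in the newborn aorta, 1824 in the fetal ductus, 1746 in the oxygen ductus and 4325 in the newborn ductus. Every ductus sample was above both aorta samples, and within each vessel the newborn sample was above the fetal one. The fetal ductus was 2.63-fold above the fetal aorta, a ratio exceeded by 7 of the 4728 probe sets compared on that chip. At birth the signal was 2.37-fold higher in the ductus and 1.83-fold higher in the aorta. To judge such gaps without replicates, each was set against the spread of the log2 ratio among all probe sets of like signal on the chip (a robust standard deviation, SD), which contains true differences between the states as well as error. For Adamts1 the gap from newborn to fetal ductus (log2 1.25, spread SD 0.37) and that from newborn to fetal aorta (0.87, SD 0.39) were beyond 2 SD, while the gaps from fetal to oxygen ductus (0.06) and from oxygen ductus to newborn aorta (0.46, SD 0.48) were not.

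Tgfbi had a signal of 524 in the fetal aorta, 473 in the newborn aorta, 1189 in the fetal ductus, 1052 in the oxygen ductus and 1838 in the newborn ductus. The aorta samples were close to each other (log2 difference 0.15, spread SD 0.44) and all ductus samples lay above them. The fetal ductus was 2.27-fold above the fetal aorta, with 18 of 4728 probe sets of the chip higher. The newborn ductus was 1.55-fold above the fetal ductus, a log2 ratio of 0.63 that lay within 2 spread SD of 0.36. The gap between the oxygen ductus and the fetal aorta, 2.01-fold, was the single step in the order of Tgfbi levels beyond 2 SD.

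Emp1 had 2 probe sets. The brighter one, on chip B, gave 1481 in the fetal aorta, 2299 in the newborn aorta, 1890 in the fetal ductus, 2237 in the oxygen ductus and 5681 in the newborn ductus. The newborn ductus stood apart, 2.47-fold above the next state, and the other 4 states lay in order without a step beyond 2 spread SD. The newborn ductus was 3.01-fold above the fetal ductus (log2 1.59, spread SD 0.36), the largest ratio at birth in the ductus among the 7 genes.

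Clic2 had a signal of 1788 in the fetal aorta, 1244 in the newborn aorta, 1796 in the fetal ductus, 2261 in the oxygen ductus and 3880 in the newborn ductus. The fetal vessels were at the same level (1.00-fold). After birth the ductus was 2.16-fold above its fetal level (log2 1.11, spread SD 0.36), whereas the aorta was 1.44-fold below its own (log2 -0.52, spread SD 0.45). No step between neighbours in the order of Clic2 levels was beyond 2 SD, since the oxygen ductus lay between fetal and newborn ductus.

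Mcam had a signal of 1980 in the fetal aorta, 2171 in the newborn aorta, 3008 in the fetal ductus, 4170 in the oxygen ductus and 6245 in the newborn ductus. All ductus samples were above both aorta samples, and the aorta samples differed 1.10-fold. The fetal ductus was 1.52-fold above the fetal aorta (log2 0.60, spread SD 0.27), and the newborn ductus was 2.08-fold above the fetal ductus (log2 1.05, spread SD 0.37). The order had no neighbour step beyond 2 SD, as the oxygen ductus was again intermediate.

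Dysf had a signal of 1167 in the fetal aorta, 1017 in the fetal ductus, 1102 in the oxygen ductus, 1099 in the newborn ductus and 205.5 in the newborn aorta. The first 4 of these differed by less than the spread, and the newborn aorta, under the floor of 241.7, stood alone. The newborn aorta was at least 4.83-fold below the fetal aorta, and 2 of the 4849 probe sets compared on the chip were lower still. The newborn ductus was 1.08-fold above the fetal ductus (log2 0.11).

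Slc44a2 had 2 probe sets on chip C, and the brighter gave 662 in the fetal aorta, 304 in the newborn aorta, 742 in the fetal ductus, 793 in the oxygen ductus and 930 in the newborn ductus. Its low state was the newborn aorta too, 2.18-fold below the fetal aorta (log2 -1.12, spread SD 0.41) and not far above the floor of 243. The newborn ductus was 1.25-fold above the fetal ductus, within the spread.

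On the log2 scale the newborn ductus-to-aorta ratio is the sum of the fetal ductus-to-aorta ratio, the ratio of newborn to fetal ductus and the ratio of fetal to newborn aorta, so these terms show where each gene's ratio came from, with no test since the sum chose the genes. For Adamts1 (1.77) and Tgfbi (1.96) the fetal term was the largest, at 1.39 and 1.18. For Adamts1 the ductus term was close to it, at 1.25, a gap smaller than the spread SD of either term (0.27 and 0.37). For Emp1 (1.31), Clic2 (1.64) and Mcam (1.52) it was the ductus term, at 1.59, 1.11 and 1.05. For Dysf (at least 2.18) and Slc44a2 (1.61) it was the aorta term, at 2.27 (a bound) and 1.12. In Adamts1 and Emp1 the aorta term was negative, at -0.87 and -0.63, because both had a higher signal in the newborn than in the fetal aorta. These are terms of the brightest probe sets. At the dimmer probe set of Slc44a2 the ductus term was the largest, at 0.80, and the aorta term was 0.06. At that of Emp1 it was again the ductus term, at 0.64, in a sum of 0.07. Among all 94 genes of the rule, the largest term was the fetal one in 28, the ductus one in 28 and the aorta one in 38.

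**Figure D2:**
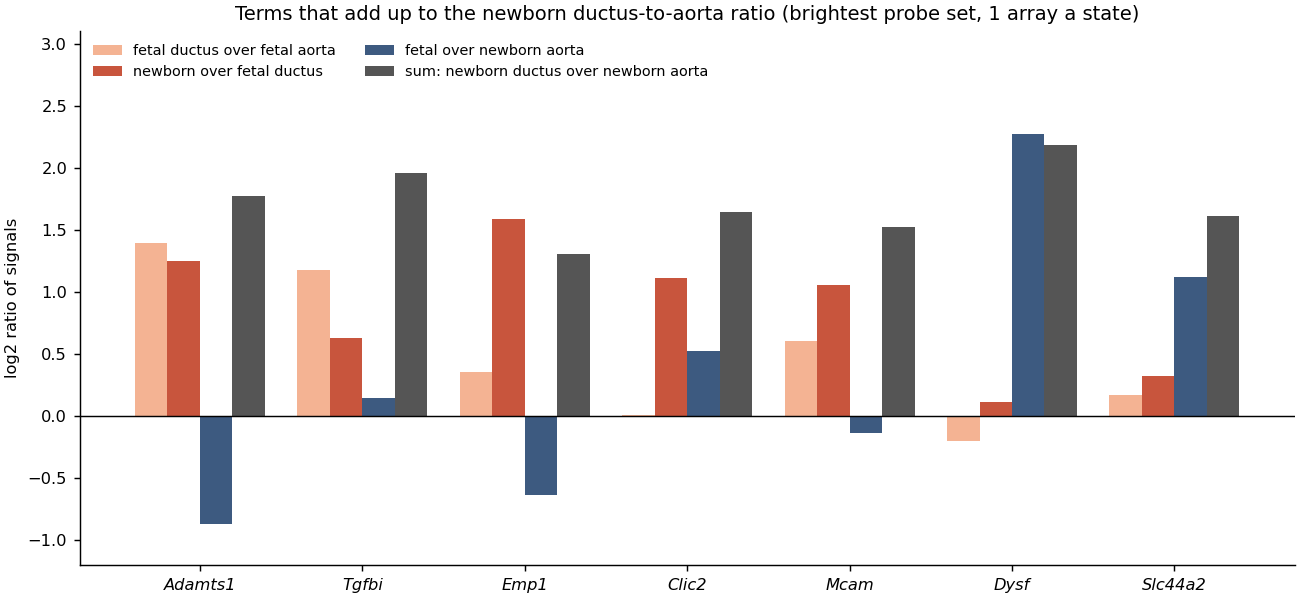
Log2 ratios at the brightest probe set for the fetal vessels, for birth in the ductus and for birth in the aorta (turned, so that a lower newborn aorta is positive), beside their sum, the newborn ductus-to-aorta ratio, with 1 array per state. The fetal bar is the tallest of the 3 terms for Adamts1 (1.39) and Tgfbi (1.18), the ductus bar for Emp1, Clic2 and Mcam, and the aorta bar for Dysf and Slc44a2.

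The newborn ductus-to-aorta ratio itself, the value behind the choice, was 3.41-fold for Adamts1, 3.88-fold for Tgfbi, 2.47-fold for Emp1, 3.12-fold for Clic2, 2.88-fold for Mcam, at least 4.54-fold for Dysf and 3.06-fold for Slc44a2. Of all 14179 probe sets compared in that pair, 1.26% were past 2-fold upwards and 1.27% downwards, and the count of 7 of 7 members beside it is fixed by the rule.

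The arrays of the fetal vessels do not enter the ratio of the rule. The 7 members were taken from its 94 genes with earlier results of these data known, so these arrays are not independent of the choice. In the fetal vessels Adamts1 and Tgfbi, 2 of the 7 genes, exceeded the aorta by 2-fold or more and 0 of the 7 were that far below it, against 1.01% of 14231 probe sets above, 0.913% below and 1.93% either way. Of the 87 other genes that passed the rule, 17 were also at least 2-fold higher in the fetal ductus, with a median log2 ratio of 0.27. A fetal excess is therefore not particular to the members. Of the other members Mcam was at 1.52-fold, Emp1 at 1.28-fold, Slc44a2 at 1.12-fold and Clic2 at 1.00-fold, while Dysf was 1.15-fold lower. The median log2 ratio of the 7 genes was 0.35, beside -0.01 for all probe sets, and 6 of the 7 ratios were above 0. Adamts1, Tgfbi and Mcam were beyond 2 spread SD before birth, and the other 4 were inside it.

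Oxygen given to the dam was also compared on arrays outside the ratio of the rule, with the same limit. None of the 7 genes was 2-fold apart between oxygen and fetal ductus at its brightest probe set, against 0.486% of 13788 probe sets past 2-fold upwards, 2.11% downwards and 2.6% either way. The ratios ran from a log2 of -0.18 for Tgfbi to 0.47 for Mcam (1.39-fold), with a median of 0.12 beside -0.01 for all probe sets, and none was beyond 2 spread SD. Clic2 (1.26-fold) and Mcam were the members with the highest values. In this pair fetal and oxygen ductus were dissected under the same gas. On chips B and C, which hold the brightest probe sets of the members, the oxygen ductus array had the lowest median signal. It was 220 against 243 to 254 on chip B and 226 against 238 to 252 on chip C. The part of this in the ratios was not tested.

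**Figure D3:**
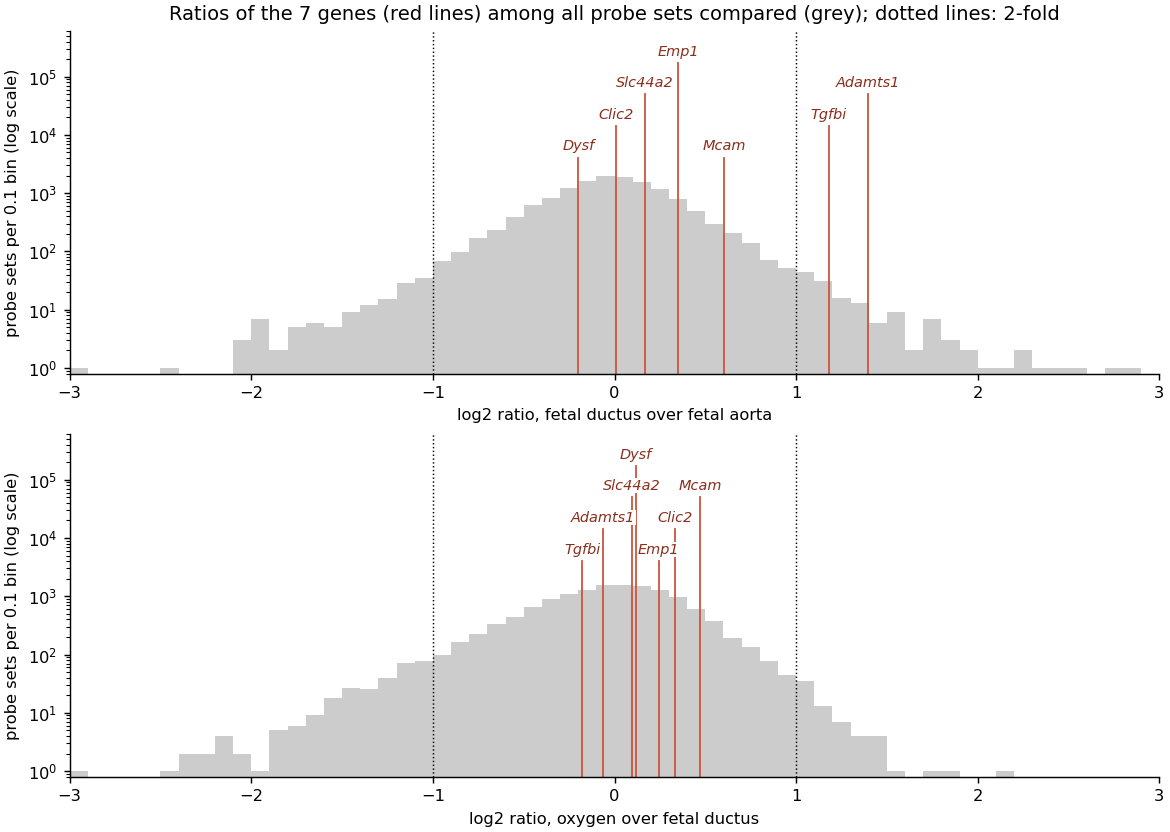
Histograms (grey, log count axis) of the log2 ratio of all probe sets compared between fetal ductus and fetal aorta (top) and between oxygen and fetal ductus (bottom), with the 7 genes at their brightest probe set as red lines (their heights carry no value) and 2-fold as dotted lines. Adamts1 and Tgfbi lie past 2-fold in the top panel, and all 7 genes lie between -0.18 and 0.47 in the bottom one.

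The remaining pairs each share a newborn array with the ratio that chose the genes, so a high value in the newborn ductus or a low one in the newborn aorta enters both. Between newborn and fetal ductus, 4 of the 7 genes were at least 2-fold higher (Adamts1, Emp1, Clic2 and Mcam) and 0 lower, beside 2.06% and 1.88% of 14206 probe sets (3.93% either way). Between newborn and fetal aorta, 2 were at least 2-fold lower (Dysf and Slc44a2) and 0 higher, beside 2.49% and 2.51% of 14443 (5.01% either way). Between newborn and oxygen ductus, Adamts1 (2.48-fold) and Emp1 (2.54-fold) were at least 2-fold higher and 0 genes lower, beside 4.56% and 2.71% of 14007 (7.27% either way). In that last pair Tgfbi was at 1.75-fold, Clic2 at 1.72-fold, Mcam at a log2 ratio of 0.58, Slc44a2 at 1.17-fold and Dysf at 1.00-fold. The oxygen ductus lay nearer to the newborn level for Mcam and Clic2 than for Adamts1 and Emp1, a difference that was not tested.

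The second probe sets of Emp1 and Slc44a2 did not repeat the pattern. The dimmer Emp1 probe set, on chip A, gave 756 in the fetal aorta, 1038 in the newborn aorta, 701 in the fetal ductus, 270 in the oxygen ductus and 1093 in the newborn ductus. Its newborn vessels were level (1.05-fold) where the brighter one had them 2.47-fold apart. Its oxygen ductus was 2.59-fold below the fetal ductus, where the brighter one was 1.18-fold above it. The oxygen ductus array had the lowest median signal of the 5 on that chip too, 126 against 151 to 163, and its part in this value was not tested.

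The dimmer Slc44a2 probe set gave 567 in the fetal aorta, 545 in the newborn aorta, 427 in the fetal ductus, 542 in the oxygen ductus and 745 in the newborn ductus. The newborn ductus was the highest again, 1.37-fold above the newborn aorta, but the low newborn aorta of the brighter probe set (304) was not seen. In the pair that chose the genes, the log2 ratios of the probe sets differed by 1.23 for Emp1 and by 1.16 for Slc44a2. Over the 1362 genes with exactly 2 probe sets above the floor on both arrays, the median difference was 0.26 and the 90th percentile 0.69. The other 5 genes had 1 probe set each, which leaves no such check for them.

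**Figure D4:**
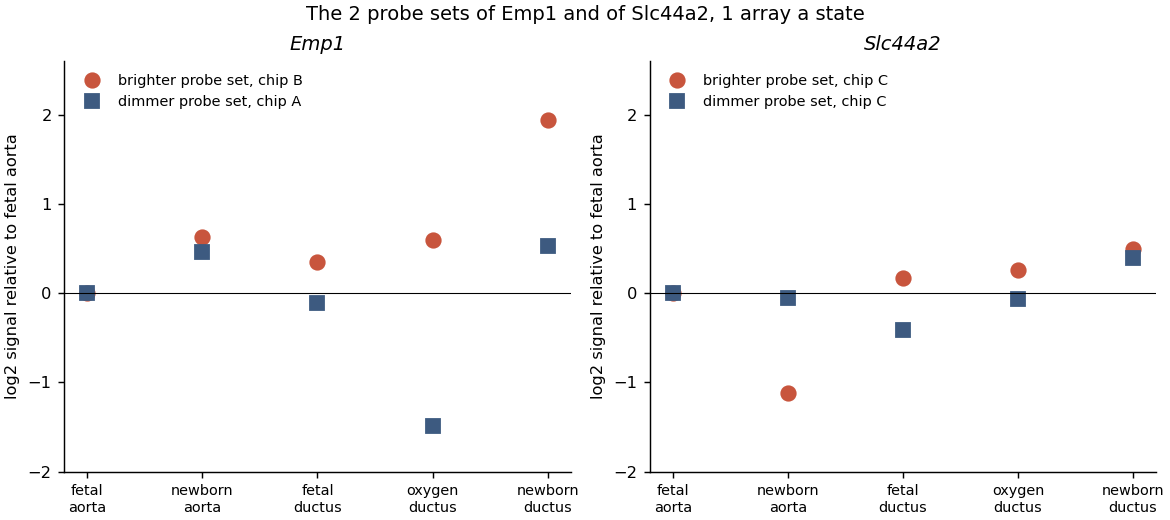
Log2 signal relative to the fetal aorta for the brighter (circles) and dimmer (squares) probe set of Emp1 and of Slc44a2 in the 5 states, 1 array each. The probe sets of Emp1 part in the newborn and oxygen ductus. From 1481 in the fetal aorta the brighter one is at 5681 and 2237, and from 756 the dimmer one is at 1093 and 270. Those of Slc44a2 part in the newborn aorta, with 304 against 662 in the fetal aorta (brighter) and 545 against 567 (dimmer).

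The upstream sequences of 5 of the 7 genes were found in the RefSeq table (build GRCr8), and 4 are printed. These genes stand for the 3 patterns above: higher in the ductus before birth (Adamts1, Tgfbi), higher in the ductus after birth (Emp1) and lower in the newborn aorta (Dysf). Adamts1 also fits the pattern of Emp1, with a ductus term of 1.25 close to its fetal term of 1.39. Each line gives the 250 bases before the annotated start, from 5′ to 3′ on the gene's strand, and capitals mark the motifs found. The windows are chr11:38427385-38427634 (minus strand), chr17:7990114-7990363 (minus strand), chr4:169943980-169944229 (plus strand) and chr4:118059918-118060167 (plus strand).
Adamts1: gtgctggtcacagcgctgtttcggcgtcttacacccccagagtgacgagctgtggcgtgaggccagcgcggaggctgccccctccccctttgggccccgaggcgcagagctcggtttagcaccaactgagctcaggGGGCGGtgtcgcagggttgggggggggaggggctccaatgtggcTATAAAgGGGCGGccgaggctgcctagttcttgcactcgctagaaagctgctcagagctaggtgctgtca
Tgfbi: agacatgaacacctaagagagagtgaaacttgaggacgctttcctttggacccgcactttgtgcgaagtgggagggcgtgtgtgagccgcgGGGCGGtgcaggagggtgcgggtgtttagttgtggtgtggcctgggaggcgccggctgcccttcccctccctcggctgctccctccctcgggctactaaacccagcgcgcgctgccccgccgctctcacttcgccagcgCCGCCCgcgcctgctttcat
Emp1: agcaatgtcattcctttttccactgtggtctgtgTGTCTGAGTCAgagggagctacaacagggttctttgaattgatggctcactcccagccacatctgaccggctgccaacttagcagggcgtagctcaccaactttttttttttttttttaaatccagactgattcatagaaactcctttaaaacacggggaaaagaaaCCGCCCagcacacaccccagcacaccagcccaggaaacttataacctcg
Dysf: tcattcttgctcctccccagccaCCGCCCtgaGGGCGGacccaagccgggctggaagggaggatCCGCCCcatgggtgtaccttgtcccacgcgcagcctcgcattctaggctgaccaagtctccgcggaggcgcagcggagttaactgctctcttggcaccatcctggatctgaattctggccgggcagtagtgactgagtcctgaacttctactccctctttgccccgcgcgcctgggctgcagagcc

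The search covered both strands for AP-1 (TGACTCA), the cyclic AMP element (TGACGTCA), the SMAD element (CAGACA), the palindromic glucocorticoid element, the hypoxia element (ACGTG), the GC box (GGGCGG) and the CArG box of serum response factor, and the gene's own strand for the TATA box (TATAAA). The GC box was present in Adamts1, Tgfbi, Emp1 and Dysf and in 30.5% of all 33469 windows of that length. Emp1 held an AP-1 match (first base 212 bases before the start) that overlapped a SMAD match (216 bases before it), motifs found in 4.05% and 17.2% of all windows. Adamts1 held a TATA box match, as did 8.06% of all windows. The Slc44a2 window held none of these letters, and no member window held the cyclic AMP, glucocorticoid, hypoxia or CArG letters. A match describes the letters alone, and binding was not measured here.

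Among the partners of Adamts1, fixed as a list of ADAMTS proteases, their substrates and inhibitors, 12 genes were above the floor in at least 1 state. Between the fetal vessels 0 of 12 were at least 2-fold apart either way, beside 1.93% of all probe sets. Between newborn and fetal ductus it was 0 of 12, beside 3.93% (median log2 0.35, and -0.02 for all probe sets). Versican (Vcan), a proteoglycan cleaved by Adamts1, had a signal of 1572 in the fetal aorta, 2365 in the newborn aorta, 2077 in the fetal ductus, 1852 in the oxygen ductus and 2714 in the newborn ductus. Its newborn ductus signal was thus the highest of the 5, with a log2 ratio at birth of 0.39 in the ductus and 0.59 in the aorta. Aggrecan (Acan), another proteoglycan that it cleaves, was under the floor of 149.8 in both aorta samples and at 260.8 in the fetal, 317.5 in the oxygen and 262.2 in the newborn ductus, so the ductus was at least 1.74-fold higher before birth and at least 1.75-fold higher after it. Timp3, an inhibitor of ADAMTS proteases, had 972 in the fetal aorta, 1806 in the newborn aorta, 1314 in the fetal ductus, 1070 in the oxygen ductus and 2117 in the newborn ductus. The newborn ductus-over-aorta log2 ratio was 0.23 for Timp3 but -0.19 for Timp2, -0.38 for Timp1 and -0.45 for Timp4, so the inhibitors did not share a direction. In the aorta at birth Adamtsl4, a protease-like matrix protein, was 2.11-fold higher and the protease Adamts7 at least 2.20-fold lower.

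For Tgfbi, the fixed list of TGF-beta ligands, receptors, Smads and matrix targets had 27 genes above the floor in some state. In the fetal vessels 1 of 26 exceeded the aorta by 2-fold, Ltbp4 (2.11-fold), a latent TGF-beta binding protein, and 0 were lower by as much. Of all probe sets 1.01% were higher and 0.913% lower. In the newborn vessels 0 of 27 were 2-fold apart, beside 2.52% of all probe sets. Tgfb2, a ligand, had 1940 in the fetal aorta, 2454 in the newborn aorta, 2630 in the fetal ductus, 2422 in the oxygen ductus and 3371 in the newborn ductus, with ductus-over-aorta log2 ratios of 0.44 and 0.46 before and after birth. Tgfb3, another ligand, lay the other way after birth, with 2074 in the newborn aorta against 1211 in the newborn ductus (log2 -0.78), and at 0.19 before birth. Tgfb1 ran from 408 to 640 and was highest in the fetal aorta, with a newborn log2 ratio of -0.04. Postn (periostin), the fasciclin-domain relative of Tgfbi, had a ductus-over-aorta log2 ratio of -0.51 before and after birth. Ltbp2 was 2.46-fold higher in the newborn than in the fetal ductus and 4.34-fold higher in the newborn than in the fetal aorta. Under oxygen the inhibitory Smad6 was 2.25-fold lower, the single gene of 26 at least 2-fold apart from the fetal ductus. The share of all probe sets was 2.6%. Between newborn and oxygen ductus Ltbp2 was 4.06-fold and the inhibitory Smad7 at least 2.25-fold higher, 2 of 27 genes beside 4.56% of all probe sets.

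The lists of all 7 members are small beside the 1.93% to 7.27% of all probe sets past 2-fold in the 6 pairs. Counts of 0 to 2 in them set no list apart. Of the PMP22 and EMP family 5 relatives of Emp1 were above the floor and 0 were 2-fold apart between vessels or at birth, with Emp3 between 4383 and 5642 and Pmp22 between 3385 and 4098 over the 5 states. Lim2 of this family was 2.01-fold higher in the newborn than in the oxygen ductus. Of the CLIC family Clic1, Clic3 and Clic4 were above the floor, 0 of 3 were 2-fold apart in the newborn vessels, and Clic4 ran from 2965 in the fetal aorta to 4933 in the newborn ductus. Clic1 was highest in the fetal ductus (4061), and Clic3 was highest in the newborn aorta (398) and under its floor in both the fetal and the newborn ductus. Among 22 vascular adhesion molecules, pericyte genes and laminin chains set beside Mcam, 1 of 22 was at least 2-fold higher in the fetal ductus and 1 of 20 in the newborn ductus. Both counts are Rgs5, a G protein regulator of pericytes and arterial muscle, at 4.65-fold and 2.77-fold. Rgs5 was also 2.25-fold higher in the newborn than in the fetal ductus and 3.77-fold higher in the newborn than in the fetal aorta, where L1cam, a neural adhesion molecule, was at least 2.16-fold lower. Cspg4, a pericyte proteoglycan, ran from 637 in the fetal aorta to 1526 in the newborn ductus. Pdgfrb, a receptor of pericytes and other mural cells, lay the other way, with 672 in the fetal ductus, 571 in the newborn aorta and 459 in the newborn ductus, so the pericyte genes did not share a direction. Pecam1 of endothelium was higher in the newborn aorta (2212) than in the newborn ductus (2030).

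Beside Dysf, 22 genes of ferlins, annexins, caveolae and calpains were above the floor, and 0 of 22 were 2-fold apart between newborn and fetal aorta (median log2 0.05). Its relative Myof (myoferlin) had 539 in the fetal aorta, 683 in the newborn aorta, 766 in the fetal ductus, 634 in the oxygen ductus and 824 in the newborn ductus, so it did not share the low newborn aorta. Anxa1 (annexin A1) was 2.24-fold higher in the newborn than in the fetal ductus, the single gene of that list past 2-fold there. Beside Slc44a2, 12 genes of choline transport and phosphatidylcholine synthesis were above the floor, and in all 6 pairs 0 of them were at least 2-fold apart. Slc44a1, its relative, had 756 in the newborn aorta against 678 in the fetal aorta.

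The genes most like each member over the 5 states were found by the root mean square difference of the log2 signal, centred on each gene's mean, among 1311 other named genes with a range of at least 1. For Adamts1 these were Synpo2 (synaptopodin 2, 0.17), Pdlim3 (0.27) and the potassium channel Kcnk3 (0.29). Emp1 was nearest to the integrin Itga8 (0.13), Crim1 (0.16) and Pdk4 (0.20), and Clic2 to Cttnbp2nl (0.18), the potassium channel Kcnj8 (0.18) and Kctd1 (0.20). For Mcam they were the matrix glycoprotein Tnc (0.09), Cpe (0.14) and the growth hormone receptor Ghr (0.16), and for Tgfbi Lrba (0.24), the opioid peptide precursor Penk (0.25) and Sorbs2 (0.26). Dysf was nearest to Zfp260 (0.25), the lipoprotein receptor Scarb1 (0.26) and Ppp1r18 (0.31), and Slc44a2 to Rbms3 (0.11), Slit2 (0.14) and Fam168a (0.15). Within 0.25 lay 26 genes for Slc44a2, 17 for Mcam, 10 for Clic2, 9 for Emp1 and 1 each for Adamts1, Tgfbi and Dysf. Among the members themselves the nearest were Clic2 and Mcam (0.26) and the farthest Adamts1 and Dysf (1.10). With 5 points that share their arrays these distances are descriptions.

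The signal of tissue marker genes differed between the states, and some members were high or low in the same states. All 14 contractile smooth muscle genes were above the floor in every state, Acta2 (smooth muscle actin) at 15987 to 30805. Their summed signal was 75850 in the fetal aorta, 98334 in the newborn aorta, 108868 in the fetal ductus, 114779 in the oxygen ductus and 156135 in the newborn ductus. Mcam shares this order, and Adamts1 departs from it only by a fetal ductus 1.04-fold above the oxygen ductus. The order is that of a sum: by the median of the contractile probe sets on chip C, where Mcam and Adamts1 are read, the newborn aorta lay above the fetal ductus. Both genes depart from that order. Fat genes summed to 30640 in the newborn aorta and to 2865 to 5592 in the other states, with 11 of 12 above the floor in the newborn aorta and 4 or 5 elsewhere, and Plin1 under it in every state. The newborn aorta is also where Dysf and Slc44a2 were low. Heart muscle genes summed to 35357 in the fetal and 32899 in the oxygen ductus against 16349 to 20908 in the other states, and Ryr2 was under the floor in every state. Endothelial genes summed to 9853 to 15486, highest in the newborn aorta, and Kdr and Sele were under the floor throughout. Leukocyte genes summed to 5731 to 9935, erythroid genes to 39559 to 61334, nerve genes to 4905 to 7414 and fibroblast genes to 124613 to 138439. Per the labels the vessels had been cleared of adhering tissue. The part of these lists in the members' values was not tested, and in whole vessels fewer cells of a type and less RNA per cell cannot be told apart.

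**Figure D5:**
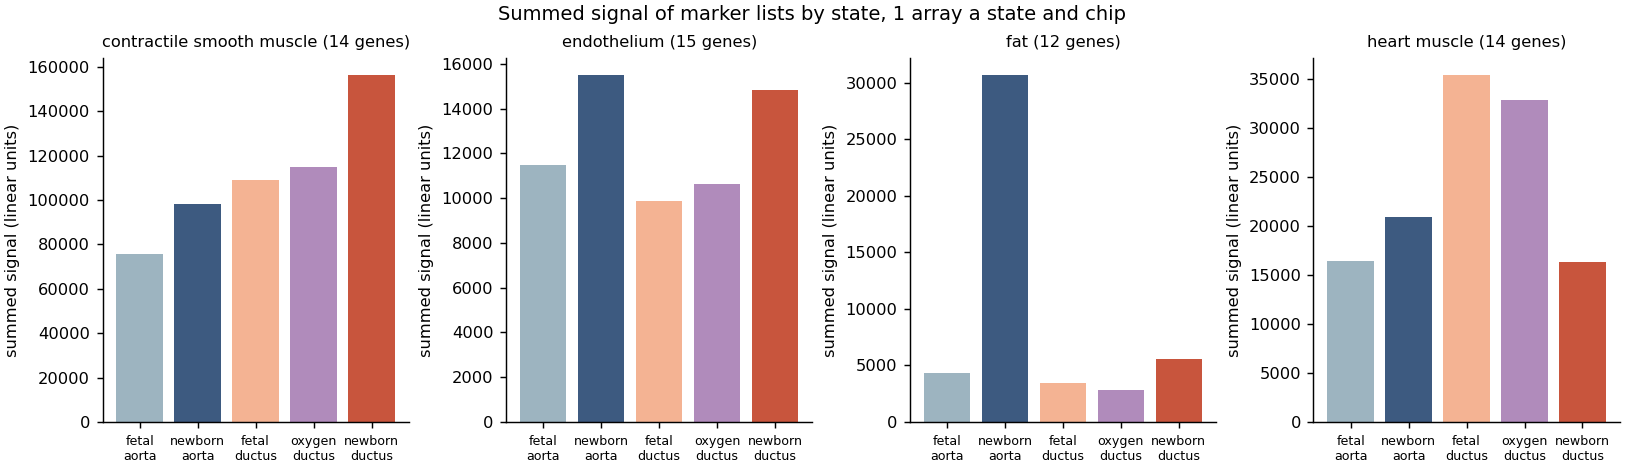
Summed signal (linear units) of the contractile smooth muscle, endothelium, fat and heart muscle lists in the 5 states, 1 array per state and chip, each gene at its brightest probe set. Smooth muscle is highest in the newborn ductus (156135), fat in the newborn aorta (30640) and heart muscle in the fetal and oxygen ductus (35357 and 32899).

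The arrays of each chip were also brought to a common median of the contractile genes. This scale moved every probe set of an array by the same constant. The chip median moves with the members, so apart from the floor a member's distance from it is fixed in advance. The values are given beside that median, and nothing about smooth muscle is read from them. In the fetal vessels Adamts1 was at a log2 ratio of 1.12 and Tgfbi at 0.91, with a median of -0.25 over chip C. In the newborn vessels Tgfbi was at 1.44, Adamts1 at 1.25, Slc44a2 at 1.09 and Mcam at 1.01, beside a chip C median of -0.47. Dysf was at 1.04, Clic2 at 0.48 and Emp1 at 0.14, beside a chip B median of -0.95. At birth in the ductus Adamts1 was at 0.69 and Mcam at 0.50 (median -0.49), and Emp1 at 0.13 and Clic2 at -0.35 (median -1.18). On chip B this scale rests on 3 probe sets and on chip C on 9.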

How the data were processed

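Per the labels, total RNA was labelled by the standard Affymetrix protocol, and the deposited values are linear signal intensities, 1 per probe set and array. MAS5 is named for 4 of the 5 arrays of chip A per the submitters' processing notes; for the other arrays the software is not given in the sources used here. The deposited arrays had been scaled: after trimming 2% at each end their means were 500.3 to 500.9. States were taken from the titles; the chip A title of the newborn aorta counts 3 h from coitum, its description says newborn.

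Control probe sets were left out. Of 26202 probe sets, 18178 had 1 gene in the platform annotation, 391 several and 7633 none; 18122 were found by gene number in the RefSeq table. Signals under the pooled chip median were set to it before log2, and a fold with 1 side there is a bound. The brightest probe set stood for each gene. A pair was compared where either array exceeded the floor. Between 46.9% and 51.8% of an array's probe sets were above it. The spread is 1.4826 times the median absolute deviation in 10 bins of signal per chip. With 1 array a state no p-value was computed. Python 3.11.15, numpy 2.4.6, pandas 2.3.3 and matplotlib 3.10.9 were used, and the ratios were tested on simulated data. Named from the pathway lists were genes at least 2-fold apart in a pair (up to 4 per list), and for likeness the 3 nearest genes; marker lists are given by sums. Relatives and partners below that fold (Acta2, Vcan, Acan, the Timp genes, Tgfb1, Tgfb2, Tgfb3, Postn, Emp3, Pmp22, Clic1, Clic3, Clic4, Cspg4, Pdgfrb, Pecam1, Myof, Slc44a1) were picked with their values in view. The 7 genes, the lists and the rules were chosen with earlier results of these data known.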

Additional observations from a re-analysis of the deposited data

Results flagged for a closer look

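In 4 of the 7 genes the ratio of newborn to fetal signal was above 1 in the ductus and below 1 in the aorta, with 1 array on each side. Of all 13487 probe sets compared in both vessels, 18.7% had these directions. The difference between the vessels was not tested, and the genes were chosen on a ratio that contains it. For Dysf the log2 difference was 2.38 (0.11 in the ductus and -2.27, a bound, in the aorta). It was 1.63 for Clic2 (1.11 and -0.52), 1.45 for Slc44a2 (0.32 and -1.12) and 0.78 for Tgfbi (0.63 and -0.15). The second probe set of Slc44a2 gave 0.80 in the ductus and -0.06 in the aorta. The ductus value of Tgfbi, Dysf and Slc44a2 and the aorta value of Tgfbi and Clic2 lay within 2 spread SD, so in none of the 4 were both directions beyond it.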

How the results depend on the processing

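No state had a replicate, so none could be left out. A floor at 0.5 times the chip median and quantile normalization moved 0 of 42 member ratios by more than the spread, and a floor 1.5 times as high moved 2 of 42. The lower floor could change only ratios of Dysf with the newborn aorta, and the higher floor only those of Dysf and Slc44a2. The other ratios were fixed under both floors. Averaged probe sets moved 5 of 42. Only the 12 ratios of Emp1 and Slc44a2 could change there, since the other 5 genes have 1 probe set. The dimmer probe sets of these 2 genes, an alternative chosen after seeing the data, moved 9 of 12. Of members 2-fold apart, the newborn over fetal ductus pair had 4, and 3 with quantile normalization (Mcam at 0.97) or the dimmer probe sets. The newborn over fetal aorta pair had 2, both lower, and 1 lower with the higher floor, with averaged or with dimmer probe sets. At 1.5-fold it had 4, 2 higher and 2 lower, beside 8.45% and 10.2% of all probe sets. The oxygen over fetal ductus pair had 0, and 1 with the dimmer probe sets (Emp1, -1.38). The newborn over oxygen ductus pair had 2, and 4 higher at 1.5-fold, beside 14.0% of all probe sets. The smooth muscle scale changed the most, with 22 of 42 member ratios moved and 2 reversed. It adds 1 constant per array, so its counts restate that shift and say nothing about the members. They were 1 higher for the fetal vessels (Adamts1), beside 0.31% of probe sets on its chip C. For the aorta at birth 3 were lower. These were Clic2 and Dysf, beside 15.9% lower on chip B, and Slc44a2, beside 5.37% on chip C. For the newborn ductus against either fetal or oxygen ductus 1 was lower (Dysf). On its chip B 59.8% and 58.9% of probe sets were lower in these pairs, and 27.1% and 27.8% over all chips. Clic2 was then at -0.35 over fetal ductus and Emp1 at -0.11 over oxygen ductus. The same shift moved the chip B medians, to -1.18 and -1.17. Other causes were not tested. Precision is limited by the number of arrays, and Dysf and Slc44a2 lie near the floor in the newborn aorta.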
